A study of Homo sapiens with 19 samples.

Results

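The genes described here are 52 genes of mitosis and the spindle, taken by symbol from 34825 gene symbols measured in HepG2, a human cell line that was derived from a liver cancer. All 52 were found in the tables of both experiments and all 52 passed the filter on low values. They comprise 9 kinases, cyclins and phosphatases of mitotic entry, 5 genes of the spindle assembly checkpoint, 4 genes around the anaphase-promoting complex (CDC20, UBE2C, PTTG1 and ESPL1), 4 subunits of the chromosomal passenger complex, 7 centromere and kinetochore genes, 8 mitotic kinesins, 9 spindle assembly and microtubule-associated proteins, 2 cytokinesis genes, 2 transcription factors and 2 genes of mitotic chromosome structure. In the first experiment, cells received a control siRNA (NTG), or 1 of 2 siRNAs against INO80, the ATPase of the INO80 chromatin remodeling complex (siINO80#1 and siINO80#2), with 3 libraries for each. In the second, cells were kept in DMSO or in 1 uM EPZ-6438, an inhibitor of the EZH2 histone methyltransferase that makes H3K27me3, from 3 days before transfection with NTG or with an siRNA against MCRS1 (siMCRS1), a subunit of INO80 that also binds spindle microtubules. This gave 2 libraries of DMSO NTG, 3 of DMSO siMCRS1, 3 of EPZ-6438 NTG and 2 of EPZ-6438 siMCRS1. Every siRNA was used at 50 nM for 72 hours, and the comparisons are of knockdowns with NTG in the same cell line, so in the siRNA groups INO80 or MCRS1 was lowered and not absent. The labels do not state whether replicate libraries came from separate cultures, so p-values measure the spread between these libraries.

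Mitosis is run by cyclin-dependent kinase 1 with its cyclins, which drive entry, and by polo-like and aurora kinases, which build the spindle and correct its attachments. Kinetochores on the centromeres hold spindle microtubules, the spindle assembly checkpoint holds back the anaphase-promoting complex until every kinetochore is attached, and separase then cuts cohesin. Kinesins and microtubule-associated proteins shape the spindle and later the midzone, where cytokinesis starts. Many of these genes are transcribed in G2 and M phase under shared promoter elements, the cell cycle homology region and the CCAAT box, through the MuvB complex with MYBL2 and FOXM1, while the RB-like DREAM complex holds them down in resting cells. HepG2 cells divide in culture and express these genes throughout.

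The promoter elements that the genes share were looked for in RefSeq promoters of build GRCh38.p14, from 250 bases before to 50 bases after each gene's start. Of the 52 genes, 45 had an entry. The cell cycle homology core TTTGAA stood on either strand in 31 of the 45 (68.9%), against 18.2% of all 27305 genes with a promoter and 14.2% of 10251 of those that were tested. CCAAT stood in 35 of 45 (77.8%), against 39.7% of all genes. TTTGAA and CCAAT stood together in 25 of 45 (55.6%), against 7.26% of all genes, and the other core, TTTAAA, stood in 15 of 45 (33.3%), against 14.5%. A match is a run of letters and not a shown binding site. The promoters of HMMR, CDC25C, SPC24 and ESPL1, which had the largest changes past the test in any comparison of a knockdown with its control among genes with a match (ESPL1 with siMCRS1 in DMSO, the others with siINO80#2), are given below from 5′ to 3′ on the strand of the gene, with each core and each CCAAT in capitals, read on either strand (CCAAT on the other strand reads as ATTGG). HMMR lies at chr5:163460382-163460681 on the plus strand, CDC25C at chr5:138331755-138332054 on the minus strand, SPC24 at chr19:11155733-11156032 on the minus strand and ESPL1 at chr12:53268049-53268348 on the plus strand.
HMMR: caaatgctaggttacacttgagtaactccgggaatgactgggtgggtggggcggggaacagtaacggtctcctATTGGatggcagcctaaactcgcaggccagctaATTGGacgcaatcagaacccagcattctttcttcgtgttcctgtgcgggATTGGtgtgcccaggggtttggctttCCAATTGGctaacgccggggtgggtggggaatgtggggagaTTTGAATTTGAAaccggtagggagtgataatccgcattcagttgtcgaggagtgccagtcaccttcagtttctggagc
CDC25C: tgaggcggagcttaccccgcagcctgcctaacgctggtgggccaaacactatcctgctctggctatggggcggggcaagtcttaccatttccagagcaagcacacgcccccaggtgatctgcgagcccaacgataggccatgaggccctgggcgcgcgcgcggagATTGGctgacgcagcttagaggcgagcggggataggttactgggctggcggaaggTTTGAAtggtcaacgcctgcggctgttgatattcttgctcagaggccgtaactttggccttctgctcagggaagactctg
SPC24: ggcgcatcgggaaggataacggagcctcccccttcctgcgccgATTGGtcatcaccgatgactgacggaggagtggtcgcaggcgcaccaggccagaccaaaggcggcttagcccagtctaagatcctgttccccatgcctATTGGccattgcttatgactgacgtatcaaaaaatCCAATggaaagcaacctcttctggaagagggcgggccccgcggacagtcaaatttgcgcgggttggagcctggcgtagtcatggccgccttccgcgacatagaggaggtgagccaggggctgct
ESPL1: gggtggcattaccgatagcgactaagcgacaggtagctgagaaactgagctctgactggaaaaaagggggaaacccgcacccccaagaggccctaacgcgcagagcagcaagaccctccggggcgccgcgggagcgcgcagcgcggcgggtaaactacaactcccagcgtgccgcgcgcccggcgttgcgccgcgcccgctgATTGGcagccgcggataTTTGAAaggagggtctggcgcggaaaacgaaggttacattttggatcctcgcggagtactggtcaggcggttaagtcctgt
In HMMR the core stood in 2 adjoining copies that began 28 and 22 bases before the start, and its CCAAT matches included an overlapping pair of opposite strands. The core of CDC25C began 30 bases before the start and that of ESPL1 31 bases before it. In the printed promoters of these 3 genes it thus lay at nearly the same place. CDC25C had 2 promoters with a match, and distances in the one not printed are not given. SPC24 held 3 CCAAT matches and neither core.

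The targeted genes were lower in their knockdowns. INO80 stood at 1278, 1338 and 1175 normalized counts (counts divided by a size factor for each library) in NTG, 576, 639 and 609 with siINO80#1 and 439.8, 456 and 483 with siINO80#2, a log2 change of -1.05 ± 0.08 (SE) and -1.46 ± 0.08, and it was lower with siINO80#2 than with siINO80#1 (log2 difference -0.40 ± 0.08, limma adjusted p = 0.00577). MCRS1 fell from 1577 and 1283 to 140.2, 83.7 and 119 in DMSO and from 1533, 1355 and 1201 to 126 and 90.5 in EPZ-6438, and INO80 itself was lower with siMCRS1 (log2 -0.27 in DMSO and -0.35 in EPZ-6438), but the call in DMSO was kept in only 3 of 10 fits with a library left out. Depth as recovered from the values ranged from 17093574 to 25369547 reads with the INO80 siRNAs and their NTG, and from 26038505 to 47397233 with the drug and siMCRS1. Hepatocyte genes that HepG2 expresses were present in every library, with summed levels of 682835 to 829719 in NTG, 787711 to 965565 with siINO80#1 and 555326 to 770348 with siINO80#2, and 4 of 7 of them (ALB, APOA1, TTR and HNF4A) were lower with siINO80#2. Of the markers of other cell types CD3E, KDR and LUM were at or near 0 in all libraries, and LYZ made up nearly all of the leukocyte sum, which was 37008 to 40992 in NTG and 49207 to 56253 with siINO80#2 (1 of 4 tested markers higher). Endothelial markers summed to 207 to 245 in NTG and 281 to 340.1 with siINO80#2, nearly all of it PECAM1. Fibroblast markers summed to 238 to 288 in DMSO NTG and 369 to 785 in DMSO siMCRS1. In EPZ-6438 they summed to 128 to 209 in NTG and 638 to 728 with siMCRS1. Over the libraries of that experiment COL1A1 ranged from 58.2 to 772 and COL3A1 from 0 to 77.8, so COL1A1 was not nearly all of every sum. The part of these shifts in the results below was not tested.

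With siINO80#2, 45 of the 52 mitosis genes fell, 1 rose and 6 did not pass the test, against 28.4% of 14034 tested genes lower and 26.6% higher (limma on log2(normalized count + 1), Benjamini-Hochberg adjusted p under 0.05). The median log2 change over the 52 was -0.83, from -1.75 to 0.62, while the median over all tested genes was 0.00. Averaged over the genes, the log2 level relative to the NTG mean was -0.70, -0.74 and -0.92 in the 3 siINO80#2 libraries and 0.15, -0.02 and -0.13 in NTG. All siINO80#2 libraries thus stood below all NTG libraries, and siINO80#2 C was the lowest. In RNA from whole cultures, fewer cells in G2 and M phase and less RNA per such cell cannot be told apart.

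**Figure D1:**
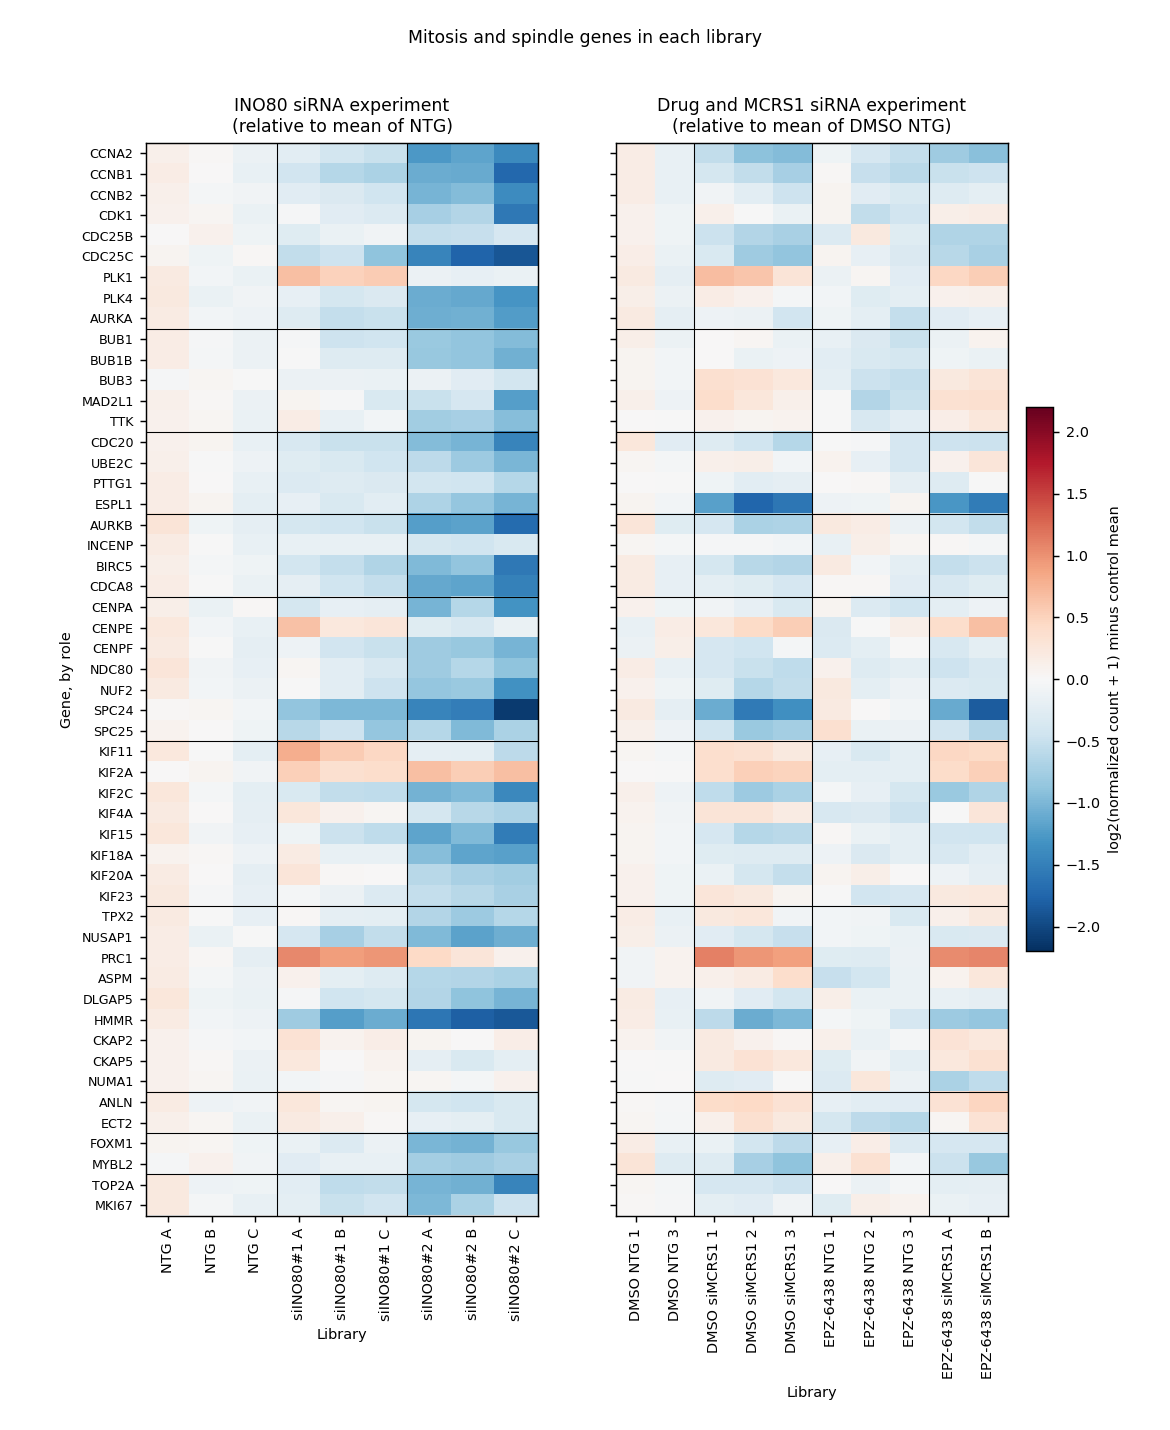
Heat map of the 52 genes (rows, by role, with lines between roles) in the 19 libraries (columns), as log2(normalized count + 1) minus the mean of NTG (left) or of DMSO NTG (right), from blue (lower) to red (higher). The 3 siINO80#2 columns are blue for most genes, with mean values of -0.70 to -0.92, and PRC1 is the darkest red row with siINO80#1 and siMCRS1.

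Of the 9 genes of mitotic entry 8 fell with siINO80#2, with a median change of -1.12. CDC25C, the phosphatase that activates cyclin-dependent kinase 1, stood at 317, 283 and 308 normalized counts in NTG and 109.9, 88.8 and 81.2 with siINO80#2. The groups were far apart, and the level fell to 30.8% of the NTG mean (log2 -1.70 ± 0.15, limma adjusted p = 6.4e-06). CCNB1, the main mitotic cyclin, went from 3083, 2769.6 and 2486 to 1299, 1277 and 837 (log2 -1.31 ± 0.16), and CCNA2, the cyclin of S and G2 phase, from 2397, 2246 and 2014 to 919.9, 988 and 835 (log2 -1.28 ± 0.10). CDK1, their kinase partner, fell by less, at 1053, 1027 and 901 in NTG and 600.2, 633 and 332 with siINO80#2 (log2 -0.98 ± 0.20), and its siINO80#2 C value stood apart from the other two. AURKA, which matures centrosomes, PLK4, which duplicates centrioles, CCNB2 and CDC25B also fell, with log2 changes of -1.12, -1.17, -1.12 and -0.47. PLK1, the polo-like kinase of mitotic entry and exit, was the exception among the 9, at 2254, 1900.1 and 1789 in NTG and 1808, 1736 and 1786 with siINO80#2, with overlapping groups (log2 -0.15 ± 0.09, adjusted p = 0.165).

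All 5 checkpoint genes fell with siINO80#2 and none passed the test with siINO80#1. BUB1B, the checkpoint protein that binds CDC20, had the largest fall (log2 -0.92 ± 0.11), followed by BUB1 (-0.88), the kinase TTK (-0.81) and MAD2L1 (-0.69). BUB3, the adaptor that carries BUB1 to kinetochores, changed least, from 2602, 2733 and 2658 to 2422, 2239 and 2004 (log2 -0.27 ± 0.07, adjusted p = 0.0105). Of the genes that act at anaphase, CDC20, the activator of the anaphase-promoting complex, fell from 1452, 1409 and 1208 to 696, 665 and 491 (log2 -1.15 ± 0.13). ESPL1, which encodes separase, its inhibitor securin (PTTG1) and UBE2C, the ubiquitin donor of the complex, also fell (log2 -0.85, -0.49 and -0.80). PTTG1 has a near-identical copy in PTTG2, so its counts are less certain.

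The chromosomal passenger complex, which senses wrong attachments, fell as a whole with siINO80#2, but by unequal amounts. Its kinase AURKB stood at 608, 464 and 434 in NTG and 214, 218 and 153 with siINO80#2, with no overlap (log2 -1.36 ± 0.16, limma adjusted p = 3.8e-05). CDCA8 and BIRC5, which target the complex to centromeres, had log2 changes of -1.26 and -1.14. INCENP, its scaffold, fell less, from 756, 663 and 595 to 514, 490.1 and 531 (log2 -0.39 ± 0.09).

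Of the 7 centromere and kinetochore genes 6 fell with siINO80#2. SPC24, a subunit of the NDC80 complex that grips microtubules, stood at 279, 283 and 264 in NTG and 99.8, 95 and 63.3 with siINO80#2, a fall to 31.2% of the NTG mean (log2 -1.69 ± 0.16, adjusted p = 1.11e-05). The other subunits of the same complex fell less, NUF2 from 532, 442 and 420.5 to 255, 262 and 184, and NDC80 and SPC25 with a log2 change of -0.77 each. CENPA, the histone of centromeres, and CENPF fell too (log2 -0.99 and -0.88). CENPE, the kinesin that brings chromosomes to the spindle equator, stood at 821, 670.3 and 629.8 in NTG and 582, 548 and 632 with siINO80#2, which did not pass the test (log2 -0.26 ± 0.13, adjusted p = 0.11).

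Among the 8 mitotic kinesins 6 fell with siINO80#2, 1 rose and 1 did not pass. The largest fall was that of KIF15, a spindle motor (log2 -1.22 ± 0.17), followed by the microtubule depolymerase KIF2C (-1.14) and by KIF18A (-1.10), which limits chromosome movements. KIF20A, KIF23 and KIF4A, motors of the midzone, had log2 changes of -0.69, -0.61 and -0.56, and the counts of KIF4A are less certain because of its near-identical copy KIF4B. KIF2A, a depolymerase that acts at spindle poles, was the single gene of the 52 that rose, from 839.8, 867 and 790.1 in NTG to 1320.4, 1208 and 1324 (log2 0.62 ± 0.07, limma adjusted p = 4.77e-05). Every siINO80#2 library stood above every NTG library. KIF11, the motor that separates the poles, stood at 803, 673 and 585 in NTG and 595, 587 and 457, with overlapping groups (log2 -0.33 ± 0.14, adjusted p = 0.0731).

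HMMR, a spindle protein that works with TPX2, had the largest fall of all 52 genes. It stood at 1525, 1293 and 1257 in NTG, 782, 587 and 631 with siINO80#1 and 448, 387 and 372 with siINO80#2. The 3 groups did not overlap, and siINO80#2 left 29.6% of the NTG mean (log2 -1.75 ± 0.12, limma adjusted p = 1.45e-06). The other spindle assembly genes fell by less with siINO80#2, with log2 changes of -1.08 for NUSAP1, -0.85 for DLGAP5, -0.69 for TPX2, which activates AURKA, -0.66 for ASPM and -0.25 for CKAP5, a microtubule polymerase (adjusted p = 0.0275). NUMA1, which focuses the poles, stood at 3185, 3075 and 2668 in NTG and 3061, 2893 and 3169 with siINO80#2 (log2 0.03 ± 0.08), and CKAP2 was at 0.07, neither past the test. PRC1, which bundles midzone microtubules, stood at 893, 812 and 694 in NTG and 1076, 956 and 854 with siINO80#2 (log2 0.27 ± 0.11, adjusted p = 0.0569). It passed as higher in 4 of 11 other settings and in 2 of 9 fits with a library left out.

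The cytokinesis genes ANLN and ECT2 fell with siINO80#2 (log2 -0.39 ± 0.09 and -0.24 ± 0.08). The transcription factors that act on mitotic promoters fell too, FOXM1 from 1602, 1582 and 1447 to 768, 749 and 862 (log2 -0.96 ± 0.08) and MYBL2 from 1908, 2067 and 1840.4 to 1159, 1127 and 1186 (log2 -0.74 ± 0.07). Their libraries lay close together within each group. TOP2A, the topoisomerase that untangles sister chromatids, fell from 10327, 8278 and 8359 to 4387, 4298 and 3278 (log2 -1.18 ± 0.14), and the proliferation marker MKI67 from 5065, 4243 and 3882 to 2203, 2701 and 3194 (log2 -0.71 ± 0.14). Of the 45 falls, 43 passed the test under every one of the other settings tried and with each library left out in turn, the exceptions being CKAP5 and ECT2, both small.

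**Figure D2:**
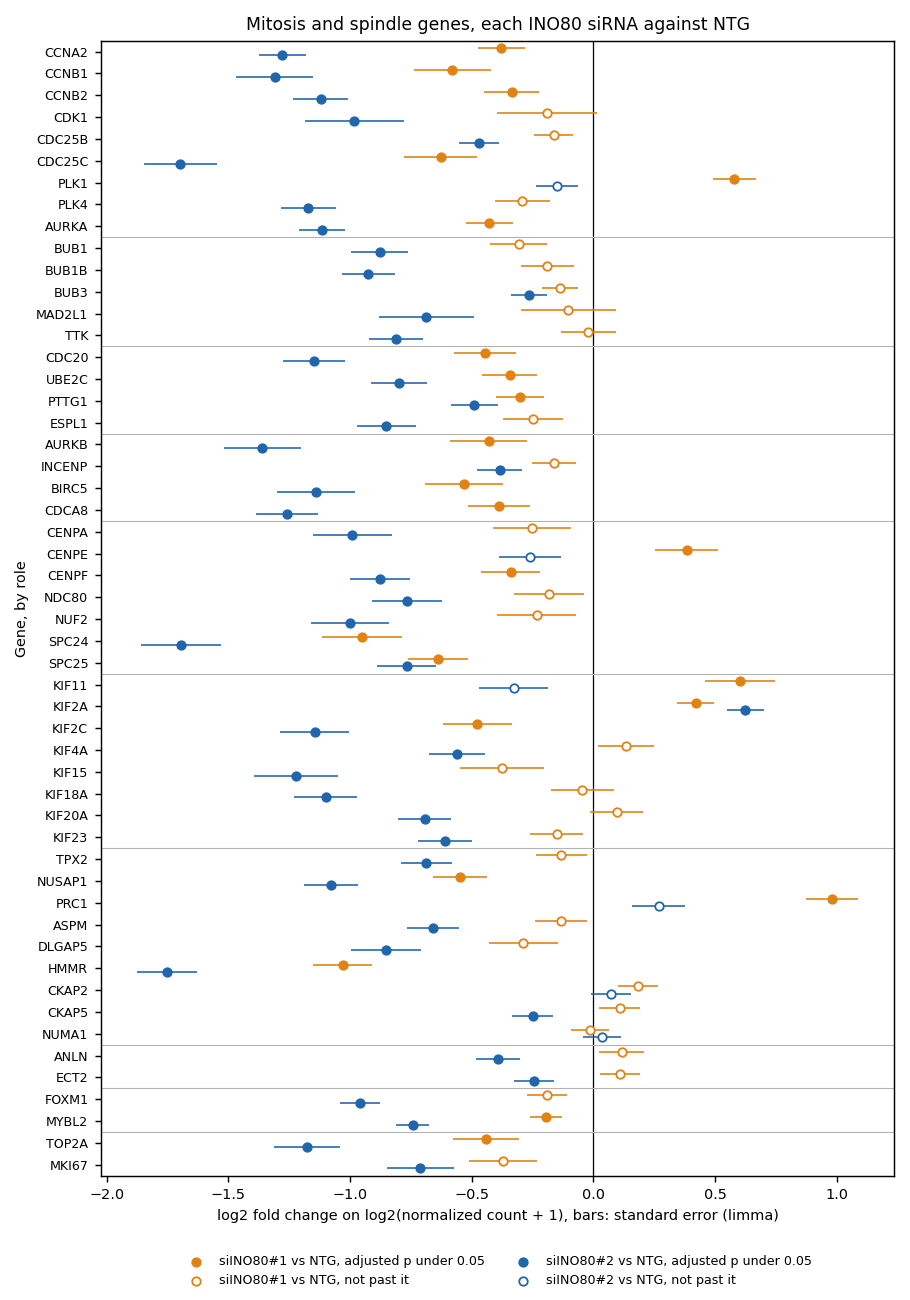
Log2 fold change of each of the 52 genes (rows, by role) for siINO80#1 against NTG (orange) and siINO80#2 against NTG (blue), with bars of 1 standard error from limma; filled points passed an adjusted p of 0.05. Nearly all blue points lie left of 0 (median -0.83), while orange points lie nearer 0 (median -0.21) with PRC1, KIF11, PLK1, KIF2A and CENPE filled to its right.

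With siINO80#1, 19 of the 52 genes fell, 5 rose and 28 did not pass the test, against 20.8% of all tested genes lower and 20.7% higher. The median log2 change was -0.21. The largest falls were those of HMMR (log2 -1.03 ± 0.12, limma adjusted p = 9.04e-05), SPC24 (150.2, 138 and 138, log2 -0.95 ± 0.16), SPC25 (-0.64), CDC25C (-0.63), CCNB1 (-0.58), NUSAP1 (-0.55) and BIRC5 (-0.53). By role, 5 of 9 genes of mitotic entry fell, 3 of 4 at anaphase (CDC20, PTTG1 and UBE2C), 3 of 4 passenger subunits (BIRC5, AURKB and CDCA8), 3 of 7 kinetochore genes (SPC24, SPC25 and CENPF), 1 of 8 kinesins (KIF2C, -0.48) and 2 of 9 spindle assembly genes (HMMR and NUSAP1). MYBL2 (-0.19) and TOP2A (-0.44) fell, while BUB3 (-0.14), CKAP5 (0.11) and NUMA1 (-0.02) did not pass. Without NTG A 7 of the 52 genes fell and 5 rose, against 16.8% of all tested genes lower and 17.8% higher. Without siINO80#1 B 8 fell and 5 rose, against 16.5% and 17.5%, and without siINO80#1 C 7 and 5, against 16.9% and 16.7%. In these fits the share of falls was not above that of all genes. With any other library left out 12 to 23 genes fell. Of the 24 genes past the test with all libraries, 11 passed under every setting and with any library left out.

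The 5 genes that rose with siINO80#1 were PRC1, KIF11, PLK1, KIF2A and CENPE. PRC1 went from 893, 812 and 694 in NTG to 1652, 1504 and 1557 (log2 0.98 ± 0.11, limma adjusted p = 5.72e-05), and the groups did not overlap. KIF11 went to 1189, 1000.4 and 929.6 (log2 0.60 ± 0.14), and PLK1 to 3106, 2818 and 2919 (log2 0.58 ± 0.09). Each siINO80#1 library was above each NTG library for both of these genes. KIF2A went to 1189.9, 1067 and 1085 (log2 0.42 ± 0.07) and CENPE to 1096, 827 and 847 (log2 0.38 ± 0.13, adjusted p = 0.0348), of which CENPE did not pass under every other setting.

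Compared with each other, siINO80#2 left 43 of the 52 genes lower than siINO80#1 and none higher, against 12.6% of tested genes lower and 9.48% higher. The median difference was -0.66 on the log2 scale, from -1.07 to 0.20. The widest gaps were those of CDC25C (-1.07 ± 0.15, limma adjusted p = 0.00105), KIF18A (-1.05 ± 0.13), AURKB (-0.93 ± 0.16) and KIF11 (-0.93 ± 0.14). KIF18A stood at 279.9, 270.0 and 244 in NTG, 300.5, 237 and 235 with siINO80#1 and 137, 118 and 114 with siINO80#2. Its first 2 groups overlapped and siINO80#2 was far below both. PRC1 (-0.71), PLK1 (-0.73) and CENPE (-0.64), raised by siINO80#1, were lower with siINO80#2 than with siINO80#1. The 9 genes that did not pass were BUB3, MAD2L1, PTTG1, INCENP, SPC25, KIF2A, CKAP2, NUMA1 and MKI67, with differences from -0.58 (MAD2L1) to 0.20 (KIF2A). Whether the lower INO80 level with siINO80#2 has a part in these differences was not tested.

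**Figure D3:**
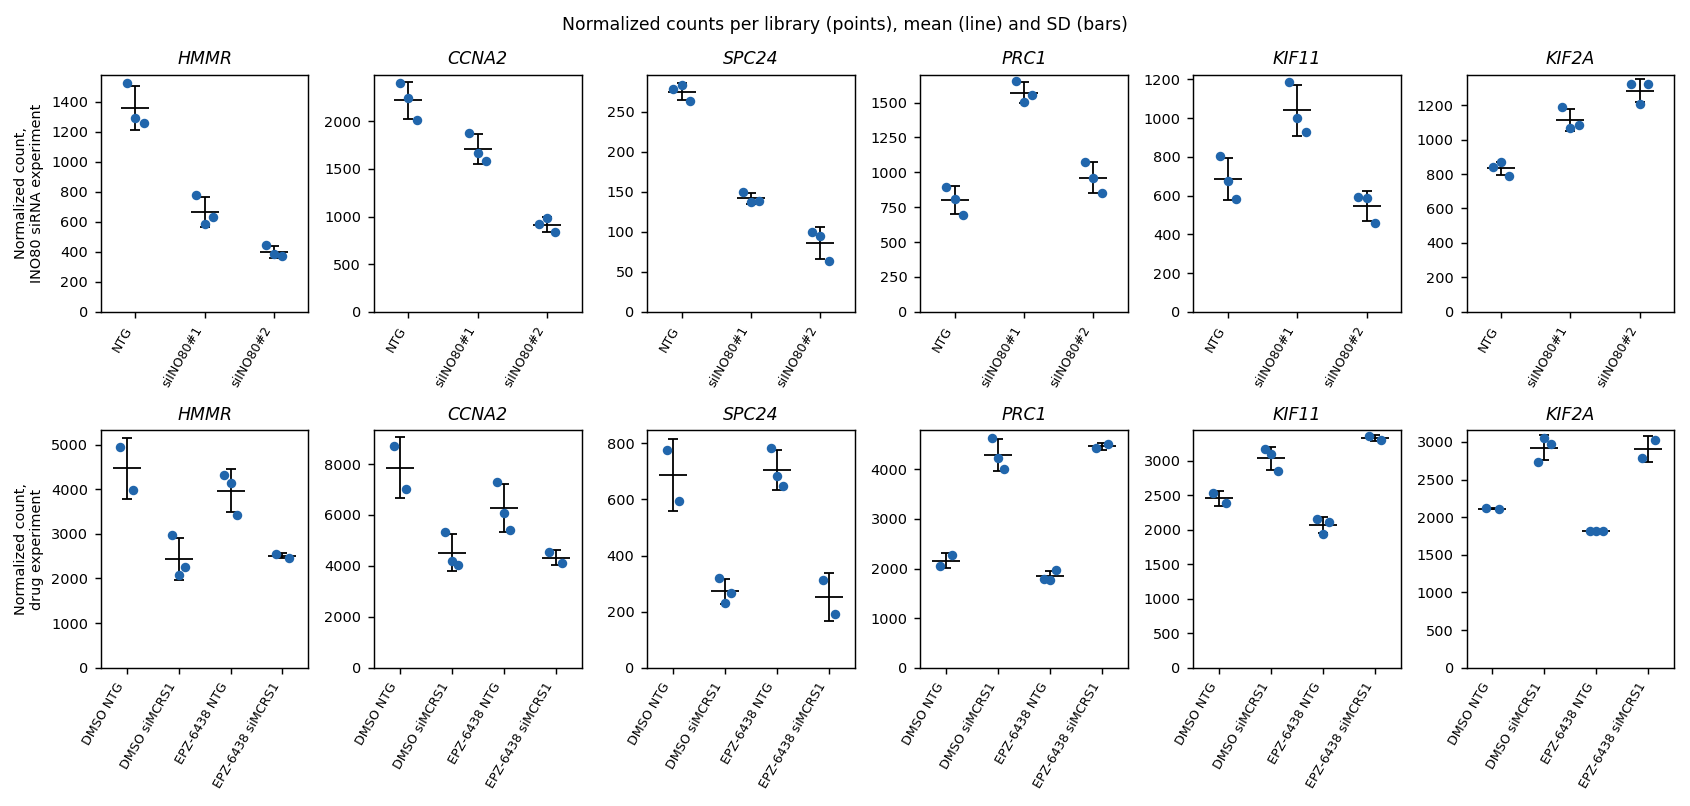
Normalized counts of HMMR, CCNA2, SPC24, PRC1, KIF11 and KIF2A in each library (points) by group, with the group mean (line) and SD (bars), in the INO80 experiment (top) and the drug experiment (bottom); axes start at 0. HMMR, CCNA2 and SPC24 step down from NTG to siINO80#1 to siINO80#2, PRC1 and KIF11 are highest with siINO80#1, KIF2A is higher with both siRNAs, and siMCRS1 groups are lower for the first 3 genes and higher for the last 3.

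With siMCRS1 in DMSO, 19 of the 52 genes fell, 7 rose and 26 did not pass the test, against 24.6% of 14312 tested genes lower and 23.1% higher. The median was -0.21, and the median of all tested genes 0.00. Averaged over the 52 genes, the siMCRS1 libraries stood at -0.09, -0.22 and -0.27 relative to the DMSO NTG mean, and the DMSO NTG libraries at 0.09 and -0.09, so the highest siMCRS1 library stood level with the lower control. Here the calls depended on the scaling between libraries. With libraries rescaled to equal totals, which moved the median of all genes by -0.23, 32 of the 52 fell and 1 rose, against 35.6% of all genes lower and 13.2% higher. With quantile normalization 26 fell and 2 rose, against 23.4% lower and 21.7% higher. Without DMSO siMCRS1 2, 13 of the 52 fell and 4 rose, against 21% of all genes lower and 18.2% higher. Without DMSO siMCRS1 3, 12 fell and 5 rose, against 21.6% and 20.6%. In both fits the share of falls was nearer to that of all genes than with all libraries. The median of the 52 was -0.10 without DMSO NTG 1 and -0.25 without DMSO NTG 3, fits that leave 1 control library.

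The largest falls with siMCRS1 in DMSO were those of ESPL1 and SPC24. ESPL1 stood at 985 and 911 in DMSO NTG and 415, 282 and 315 with siMCRS1, a fall to 35.6% of the control mean (log2 -1.51 ± 0.17, limma adjusted p = 7.08e-05). SPC24 stood at 776 and 596 and 318, 231 and 266 (log2 -1.33 ± 0.22, adjusted p = 0.000678). Both were well apart from their controls. HMMR fell from 4956 and 3981 to 2966, 2086 and 2250.2 (log2 -0.88 ± 0.16), CCNA2 from 8708 and 7011 to 5342, 4172 and 4019 (log2 -0.80 ± 0.16), KIF2C from 2941 and 2505 to 1838, 1568 and 1669 (log2 -0.68 ± 0.13), and KIF15 changed by a log2 of -0.53. These 6 genes passed under every setting and with any library left out. The rest of the NDC80 complex, SPC25 (-0.67), NUF2 (-0.48) and NDC80 (-0.47), fell as well, as did CDC25C (-0.66), MYBL2 (-0.64), CDC25B (-0.61), AURKB (-0.58), CCNB1 (-0.55), BIRC5 (-0.55), CDC20 (-0.45), TOP2A (-0.40), NUSAP1 (-0.37) and KIF20A (-0.35).

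PRC1 was the largest of the 7 rises with siMCRS1 in DMSO, from 2048 and 2265 to 4642, 4223 and 4015 (log2 0.99 ± 0.10, limma adjusted p = 4.49e-05), and the one rise that passed under every setting. PLK1 went from 5962 and 4481 to 8269, 7903 and 6324 (log2 0.53 ± 0.15), KIF2A from 2119 and 2111 to 2734, 3058 and 2975 (log2 0.46 ± 0.09) and KIF11 from 2528 and 2380.1 to 3164, 3102 and 2848 (log2 0.31 ± 0.09). None of these groups overlapped. ANLN (0.39), BUB3 (0.30 ± 0.11, 7337, 7157 and 6794 against 6015 and 5537) and CKAP5 (0.26 ± 0.09) made up the rest. CKAP5 turned to -0.049 under quantile normalization, and PLK1, KIF11, ANLN and BUB3 no longer passed with equal totals or quantile normalization, nor KIF2A with equal totals. NUMA1 did not pass (-0.18 ± 0.15).

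With siMCRS1 in EPZ-6438, 13 of the 52 genes fell and 16 rose, against 26.9% of tested genes lower and 26.8% higher. As shares of the 52 these were 25.0% and 30.8%, close to those of all genes. The median was -0.08. The largest falls were again those of SPC24, from 784, 683 and 649 to 314 and 191 (log2 -1.52 ± 0.22, limma adjusted p = 0.000225), and ESPL1, from 875, 888 and 992 to 389 and 327 (log2 -1.36 ± 0.17). MYBL2 (-0.78), HMMR (-0.65), SPC25 (-0.56), AURKB (-0.55), CDC25B (-0.54), KIF2C (-0.54), CCNA2 (-0.53), CDC25C (-0.52), BIRC5 (-0.47) and KIF15 (-0.31) fell too. NUMA1 fell from 3839, 5630.1 and 4341 to 2923 and 3202 (log2 -0.57 ± 0.15). Its controls were far apart, but both siMCRS1 libraries were below them. Of the 13 falls, 4 (ESPL1, SPC24, KIF2C and HMMR) passed under every setting and with any library left out.

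PRC1 rose most with siMCRS1 in EPZ-6438, from 1792, 1778 and 1971 to 4422 and 4521 (log2 1.28 ± 0.10, limma adjusted p = 8.46e-06). KIF11 went from 2155, 1936 and 2117 to 3355 and 3294 (log2 0.69 ± 0.09), KIF2A from 1819.7, 1814 and 1817 to 2789.6 and 3028 (log2 0.68 ± 0.09) and BUB3 from 4959, 4172 and 4003 to 6738 and 7055 (log2 0.66 ± 0.11). The groups of all 4 genes were apart. MAD2L1 (0.73 ± 0.17), ECT2 (0.71 ± 0.12), ANLN (0.61) and KIF4A (0.51) completed the 8 rises that passed under every setting and with any library left out. PLK1 (0.62), CENPE (0.59), ASPM (0.51), KIF23 (0.49), CKAP5 (0.47), CDK1 (0.45), TTK (0.39) and CKAP2 (0.30) were the other rises. Rescaled to equal totals, 25 of the 52 fell and 10 rose, against 37.2% of all genes lower and 16% higher, and with quantile normalization 20 fell and 9 rose, against 25.4% and 25.5%. The median of the 52 was -0.12 without EPZ-6438 siMCRS1 B and -0.04 without EPZ-6438 siMCRS1 A, fits that leave 1 siMCRS1 library in this treatment.

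**Figure D4:**
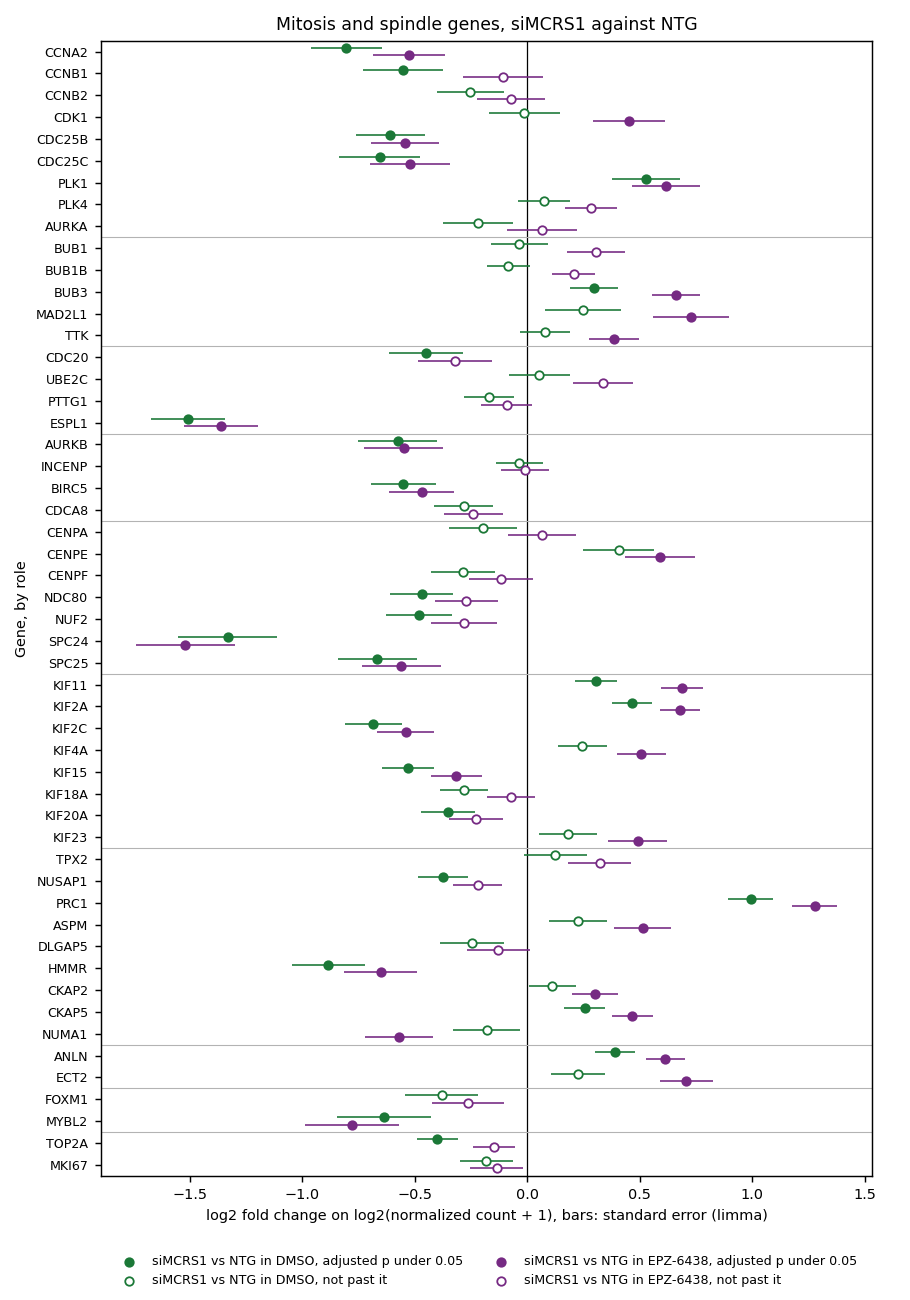
Log2 fold change of each of the 52 genes (rows, by role) for siMCRS1 against NTG in DMSO (green) and in EPZ-6438 (purple), with bars of 1 standard error from limma; filled points passed an adjusted p of 0.05. SPC24 and ESPL1 lie farthest left in both treatments and PRC1 farthest right, and most purple points lie right of the green ones.

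EPZ-6438 itself moved none of the 52 genes past the reported limma test. In NTG cells 0 of 52 passed, against 0.321% of tested genes higher and 0.0629% lower, with 11 at an unadjusted p under 0.05 and none with edgeR. DESeq2 on the recovered reads called 4 of the 52 lower, BUB1B, BUB3, KIF4A and ECT2, and 433 genes higher and 288 lower in all. Limma with a replicate block by column number, added after seeing the data, called 10 of the 52 lower, against 7.7% of all genes. The estimates were below 0 for 46 of 52, with a median of -0.16 and a range of -0.53 to 0.13. The median moved with single libraries, to -0.05 without DMSO NTG 1, -0.094 without EPZ-6438 NTG 3 and -0.25 without DMSO NTG 3. ECT2, which activates RhoA for cytokinesis, stood at 5896 and 5615 in DMSO NTG and 4398, 3856 and 3735 in EPZ-6438 NTG (log2 -0.53 ± 0.12, limma adjusted p = 0.0856). Its groups did not overlap. In siMCRS1 cells 0 of 52 passed, against 0.0838% of tested genes higher and 0.00699% lower, with 34 estimates above 0, a median of 0.03, 1 at an unadjusted p under 0.05 and none with edgeR or DESeq2.

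The difference between the siMCRS1 changes in EPZ-6438 and in DMSO was tested by an interaction term, and 0 of 52 genes passed, against 0% of all tested genes in either direction. At an unadjusted p under 0.05 there were 3, ECT2 (0.48 ± 0.17), KIF11 (0.38 ± 0.13) and BUB3 (0.36 ± 0.15), and edgeR and DESeq2 called none of the 52. The estimate was above 0 for 49 of 52, with a median of 0.20, which was 0.099 without DMSO NTG 1 and 0.29 without DMSO NTG 3. The siMCRS1 comparisons in the 2 treatments use different libraries, but this estimate uses all of them, and 46 of the 52 were lower in EPZ-6438 NTG than in DMSO NTG, so the 49 and the 46 rest in part on the same NTG libraries.

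KIF11 and PRC1 held a word in their 3′ UTRs that the other 50 genes did not. GCAGTAC, a word known from earlier results of these data to go with higher values against NTG, was searched on the RNA strand in the 3′ UTRs of GENCODE v44, and stood in 1019 of 19284 genes (5.28%). The sites of these 2 genes are shown with 10 bases on either side and the word in capitals.
KIF11: aagatataagGCAGTACtgtaaattca
PRC1: tctgcctgcaGCAGTACtactgtcaac
Both genes rose with siINO80#1 and with siMCRS1 in either treatment. The median of these 2 was 0.79 against -0.24 for the other 50 genes with siINO80#1, 0.65 against -0.23 with siMCRS1 in DMSO, and -0.03 against -0.85 with siINO80#2. PLK1, KIF2A and CENPE, which also rose with siINO80#1, do not hold the word. Because the word was chosen on these libraries for going with higher values against NTG, these medians of 2 genes are no test of it. Its presence is a description, and its part in the changes was not tested.

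Split by the promoter core, the falls with siINO80#2 were found on both sides. Of 31 genes with TTTGAA 28 fell (median log2 change -0.85), and of 14 without it 10 fell (median -0.72). With siINO80#1 the medians were -0.23 and -0.25, with siMCRS1 in DMSO -0.20 and -0.45, and in EPZ-6438 -0.07 and -0.38. KIF2A, the single rise with siINO80#2, held neither core nor CCAAT. The same was true of MYBL2, which fell (-0.74), and of CKAP2, which did not pass the test (0.07). PRC1, KIF11 and PLK1 held TTTGAA and CCAAT, as did HMMR and CDC25C, whose changes were among the largest falls.

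Other cell cycle genes, in lists by complex and pathway, moved to different degrees. With siINO80#2, 22 of 24 genes of DNA replication and G1/S fell and none rose (median -1.12), led by MCM5 (log2 -2.02 ± 0.12) and MCM2 (-1.92), subunits of the replicative helicase. Of 29 other kinetochore genes 25 fell and 1 rose (median -0.77), led by CENPM (-1.85) and MIS18A (-1.85), and all 8 condensin subunits fell (median -0.75). MuvB and its DREAM partners had 8 of 11 lower and 1 higher, with LIN9 at -1.16 and LIN54 at -1.09, and augmin and gamma-tubulin ring genes 10 of 15 lower and 2 higher, with the augmin subunit HAUS4 at -1.91 ± 0.13. Nearer to the background were cohesin and shugoshin, with 5 of 12 lower and 2 higher, and the anaphase-promoting complex, with 8 of 17 lower and 4 higher. Of 10 tested CDK inhibitors and G1 cyclins 4 rose and 2 fell, CDKN2B from 696 ± 155 to 2972 ± 571 (mean ± SD, n = 3, log2 2.10 ± 0.17) and CDKN2C to -2.04. The p53 target genes had 5 of 19 higher (26.3%), GDF15 at 1.15 among them, and 6 lower (31.6%), with FDXR at -1.36. These shares were close to those of all tested genes with siINO80#2, 26.6% higher and 28.4% lower.

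With siINO80#1, 12 of 24 replication genes fell and 1 rose (median -0.44). Of 29 other kinetochore genes 13 fell and 1 rose, and 3 of 8 condensin subunits fell. MuvB and its DREAM partners had 5 of 11 lower and none higher, and augmin and gamma-tubulin ring genes 6 of 15 lower and 2 higher. Cohesin and shugoshin had 1 of 12 lower and 1 higher, and the anaphase-promoting complex 5 of 17 lower and 3 higher. In each of these lists fewer genes fell than with siINO80#2. Of all tested genes 20.8% were lower and 20.7% higher with siINO80#1. With siMCRS1 in DMSO 16 of 24 replication genes fell (median -0.51), led by E2F2 (-1.61) and UHRF1 (-1.42). Of 29 other kinetochore genes 15 fell and 3 rose, led by ZWINT (-1.42) and CENPM (-1.38). In this comparison 24.6% of all tested genes were lower and 23.1% higher. HAUS4 fell from 2371 ± 399 (n = 2) to 423 ± 149.9 (n = 3, log2 -2.53 ± 0.26, limma adjusted p = 4.85e-05), and HAUS5 fell as well (log2 -1.72). CDKN2B was higher with siMCRS1 (0.95) and CDKN2C lower (-1.18), in the directions they had with siINO80#2. Of the 19 p53 target genes 8 fell (42.1%) and 4 rose (21.1%) with siMCRS1 in DMSO, with FDXR at -1.95 and GDF15 at 1.85. In EPZ-6438, 10 of 24 replication genes fell (41.7%) and 3 rose (12.5%), against 26.9% and 26.8% of all tested genes. Of 29 other kinetochore genes 8 fell (27.6%), a share near that of all genes, and 4 rose.

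**Figure D5:**
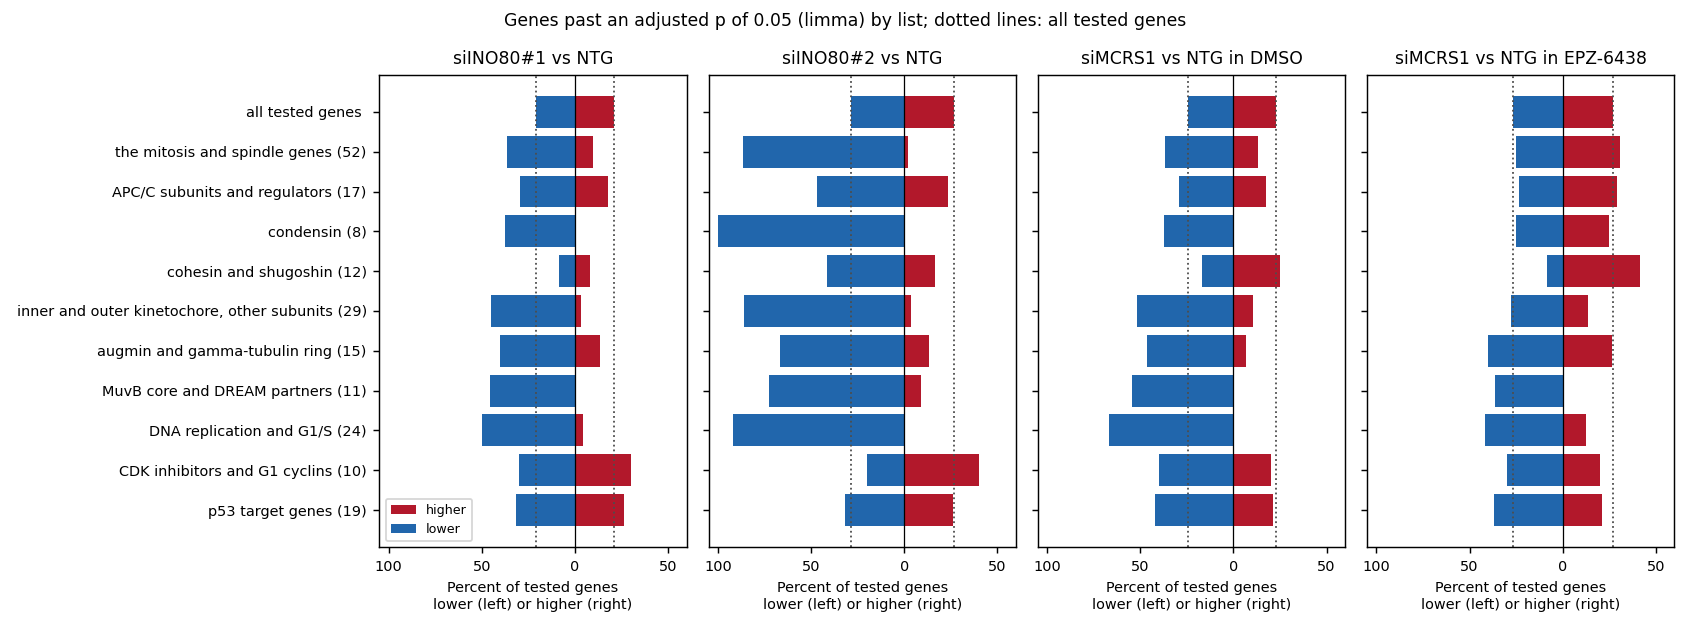
Share of each list's tested genes (number in brackets) that passed an adjusted p of 0.05 in limma as lower (blue, left) or higher (red, right) in 4 comparisons, with dotted lines at the shares of all tested genes. With siINO80#2 the mitosis and spindle genes, condensin, the other kinetochore subunits and DNA replication reach far past the dotted line on the left, while p53 targets stay near both lines.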

How the data were processed

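Stranded mRNA libraries were made from HepG2 cells with a Kapa kit. Per the labels, the submitters' processing notes name kallisto, DESeq2 and build GRCh38, and versions, annotation and the strand setting of the counting are not given in the sources used here, so genes that overlap others are less certain. In each experiment's table, for 34825 symbols, the authors deposited normalized counts, a signal that is the count of a gene over the size factor of its library, and whole reads were recovered from its smallest steps (tolerance 0.01 read). Because the tables were normalized separately, groups were tested within each table only. Replicates carry the labels' letters, except in the drug table, where most columns are numbered.

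Values were transformed as log2(value + 1), and genes with a mean of at least 10 were tested with limma 3.58.1 (R 4.3.3, two-sided), fitting the groups of each experiment together and moderating variances along a trend, with p-values adjusted by Benjamini-Hochberg over all 14034 or 14312 genes and a threshold of 0.05. Fold changes are on that scale. Alternatives were pseudocounts of 0.1 and 5, no filter, a mean of at least 50, equal totals, quantile normalization, edgeR 4.0.16 with TMM and DESeq2 1.42.0 on the recovered reads, only the groups compared, no trend, the replicate letter or column number as a block, and each library left out. The test was checked on simulated data.

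The 52 genes, the role groups and the other lists were chosen with earlier results of these data known. All 52 could be named, first the largest rise and fall of each role, with BUB3, KIF2A, CKAP5 and NUMA1 in each knockdown comparison. Of other lists up to 2 genes with the largest change with siINO80#2 or with siMCRS1 in DMSO were named. Promoter letters came from RefSeq (GRCh38.p14), and 3′ UTRs from GENCODE v44 lifted to GRCh37. Figures were drawn with matplotlib 3.10.9 in Python 3.11.15.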

Additional observations from a re-analysis of the deposited data

Results flagged for a closer look

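The 2 siRNAs against INO80 differed in their effects on the mitosis and spindle genes by a direct test. In limma, 43 of the 52 genes were lower with siINO80#2 than with siINO80#1. Among these 43 were 4 genes that rose with siINO80#1 against NTG and did not pass with siINO80#2 against NTG in the reported test. With siINO80#2, PRC1 passed as higher in 4 of 11 other settings, KIF11 as lower in 2, and PLK1 and CENPE as lower in 1 each. The log2 difference, siINO80#2 minus siINO80#1, was -0.73 for PLK1 (limma adjusted p = 0.000444), -0.64 for CENPE (0.00611), -0.93 for KIF11 (0.00162) and -0.71 for PRC1 (0.00154). All 3 siINO80#2 libraries were below all 3 siINO80#1 libraries for each of these 4 genes. INO80 was itself lower with siINO80#2, and the part of this in the difference was not tested.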

How the results depend on the processing

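The counts of genes past the test with siINO80#2 against NTG and against siINO80#1 stayed within 1.5 times the reported 46 and 43 under every alternative. Leaving out 1 library at a time gave 12 to 28 genes for siINO80#1 against NTG (24 with all libraries), 44 to 47 for siINO80#2, 35 to 45 for siINO80#2 against siINO80#1, 10 to 28 for siMCRS1 in DMSO (26) and 15 to 29 for siMCRS1 in EPZ-6438 (29). For EPZ-6438 in NTG cells DESeq2 called 4 genes, and edgeR and limma without a replicate block called 0. CKAP5 with siMCRS1 in DMSO reversed to -0.049 under quantile normalization, and the cause was not tested. Where a library left a group with 1 sample, that sample was assumed to vary like the other groups. Equal totals moved the median of all genes by -0.08 with siINO80#1, -0.11 with siINO80#2 and -0.23 with siMCRS1 in either treatment. Relative to this the medians of the 52 genes were -0.22, -0.83, -0.21 and -0.09. That rescaling shifts all genes of a library nearly alike, so it could not change these relative medians by much. With quantile normalization, which can change them, they were -0.20, -0.76, -0.38 and -0.27.

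When a replicate block by letter was fitted, 28 genes passed for siINO80#1 (23 lower), against 22.6% of all genes lower and 22.5% higher. For siINO80#2 48 passed (46 lower), against 30% and 27.9%. Between the siRNAs 44 passed, all lower, against 14.4% and 11.2%. Deviations from the group means correlated at 0.10 on average between libraries of the same letter (9 pairs, -0.08 to 0.26) and at -0.05 between others (18 pairs), and 8 of 9 libraries correlated best with one of their own letter. For the drug experiment a replicate block by column number, with A and B of the lettered columns taken as 1 and 2, was added after seeing the data. It gave 35 genes for siMCRS1 in DMSO (26 lower and 9 higher), against 29.2% of all genes lower and 28.2% higher. In EPZ-6438 it gave 42 (21 lower and 21 higher), against 31.7% and 31.8%. For EPZ-6438 in NTG cells it gave 10, all lower, against 7.7% of all genes lower and 4.73% higher. For EPZ-6438 in siMCRS1 cells and for the interaction it gave 0. Same-numbered libraries correlated at 0.20 on average (12 pairs, -0.02 to 0.30), and other pairs at -0.10. All 10 libraries correlated best with one of their own number, a hint from the data and not from the labels. Deviations within a group are tied to each other, as mirror images where it has 2 libraries, so these agreements are not independent. Correlations were over 0.1 in 5 of 9 pairs of the same letter and in 11 of 12 pairs of the same number. What a shared letter or number stands for is not stated, and whether such libraries were handled together was not tested. The interaction could not be fitted with only the groups compared, since it uses all of them.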
